A study of Homo sapiens with 12 samples.

Results

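The mitochondrial ribosomal protein genes were the 78 protein-coding genes of 27412 in the deposited comparison tables whose symbol was MRPL or MRPS, a number and at most 1 further letter, 49 of them MRPL and 29 MRPS. They were measured by RNA sequencing in 12 libraries of MDA-MB-231, a human breast cancer cell line of the triple-negative, mesenchymal kind, after 24 h with 1 of 4 treatments. All 4 groups are listed with 0.02% DMSO and 0.1% water, which the vehicle group received alone. The BITC group also received 2 µM BITC, the ZA group 1 µM ZA and the BITC+ZA group both compounds, with 3 libraries per group. Only the abbreviations stand in the labels, and from knowledge of the study they were read as benzyl isothiocyanate, an electrophile of cruciferous vegetables, and zoledronic acid, a bisphosphonate that inhibits farnesyl diphosphate synthase. All groups are the same single cell line, and dishes were plated in triplicate without a statement that the cultures were otherwise separate, so p-values may measure technical spread alone.

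Mitochondria carry their own ribosome, which translates the few proteins that mitochondrial DNA encodes, all of them subunits of the respiratory chain and ATP synthase. Its ribosomal RNAs are made in the organelle, but every one of its proteins is encoded in the nucleus, made in the cytosol and imported. Some of these proteins descend from bacterial ribosomal proteins and others exist in mitochondrial ribosomes only. By known role, 51 of the 78 genes encode proteins of the large subunit and 26 of the small subunit. MRPS18A and MRPS30 are large-subunit proteins in spite of their names, and MRPS36 is now known as a component of the oxoglutarate dehydrogenase complex. Homologues of bacterial ribosomal proteins numbered 48, and 29 were specific to mitochondria.

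The libraries held 15874857 to 17375664 counts. Vimentin, CD44, AXL and PLAU, which this line is known for, stood at 93.8 to 282 FPKM in vehicle, and of the markers listed as low in it ESR1 was at 0 and CDH1 at 4 counts in each vehicle library, but ERBB2 at 9.08 FPKM and EPCAM at 6.70 FPKM. Levels as normalized counts relative to library size are given as CPM, levels per gene length as deposited FPKM, and log2 fold changes with their standard error (SE). A gene was called at an adjusted p below 0.05 by the quasi-likelihood test of edgeR, adjusted after Benjamini and Hochberg over all 14950 genes tested, which is the source of every adjusted p below unless another is named. ZA library 1 stood apart from the other libraries of its group. Over the 78 genes, the deviation of ZA library 1 from the mean of all libraries had a rank correlation with GC content of −0.508, against 0.513 and 0.582 in ZA libraries 2 and 3. This trend was −0.214 to −0.601 in the BITC libraries, 0.376 to 0.594 in the BITC+ZA libraries, and −0.514, 0.0406 and −0.387 in the vehicle libraries. The trend was thus negative in all BITC and positive in all BITC+ZA libraries, while the ZA group held both signs and vehicle overlapped BITC. Values with GC and length offsets, and without ZA library 1, are given beside the results.

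All 78 genes passed the filter on low counts and were expressed at a median of 17.35 FPKM in vehicle, against 4.479 FPKM over all genes tested. MRPS10, a small-subunit homologue of a bacterial protein (chromosome 6, 42206801 to 42217865, minus strand, GRCh38), was highest at 98.5 ± 2.92 FPKM (SD, n = 3). MRPL14, a large-subunit protein of the interface between the subunits, followed at 97.2 ± 1.48 FPKM, within the spread of MRPS10. MRPS34, a mitochondria-specific small-subunit protein, was next at 54.4 ± 0.504 FPKM and lay above the next gene, MRPL37, at 44.8 ± 1.43 FPKM. The lower and upper quartiles were 9.895 and 29.7 FPKM, with medians of 17.7 FPKM for the large and 11.2 FPKM for the small subunit. Between treatments this order hardly moved: the lowest rank correlation of the 78 group means between any pair of groups was 0.9753, which is across genes that share their libraries.

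The lowest levels were those of MRPS24 at 0.253 ± 0.103 FPKM, MRPL46 at 0.550 ± 0.0698 FPKM and MRPL38 at 0.673 ± 0.105 FPKM. MRPS24 had as few as 4 counts in a library. These genes share most of their coding bases with another annotated gene on the same strand. In GENCODE 29, with which the deposited exon length and position were equal for 78 of 78 genes, MRPS24 shares 92.2% of its coding bases with URGCP-MRPS24, MRPL38 94.1% with AC087289.3 and MRPL46 64.0% with AC013489.1. In all, 8 genes shared at least 50% of their coding bases with 1 such gene, namely these 3, MRPL53 (100%, CCDC142), MRPS17 (100%, AC092647.5), MRPL12 (96.0%, AC139530.2), MRPL30 (95.3%, AC079447.1) and MRPS28 (53.0%, AC036214.3). Their median was 2.0 FPKM (0.253 to 13.0) against 18.0 FPKM (2.86 to 98.5) for the other 70, and 6 of them were among the 10 lowest. The partners themselves had 0 to 84 counts over the 12 libraries, apart from CCDC142 with 1441. The sources used here do not give how reads on shared bases were counted, so the levels of these 8 genes may rest on part of their exons, and the part of the overlap in their level was not tested.

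**Figure D1:**
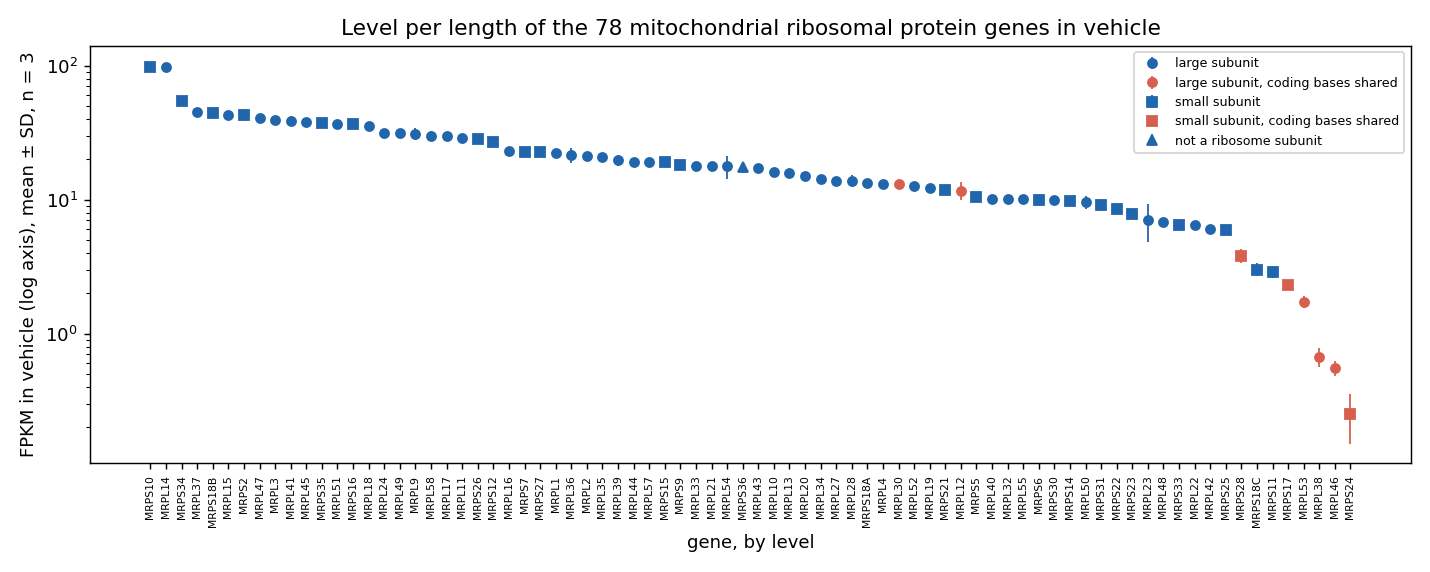
FPKM in vehicle (log axis, mean ± SD, n = 3) of the 78 genes in order of level, with circles for the large and squares for the small subunit and a triangle for MRPS36. The 8 genes in red share at least 50% of their coding bases with a same-strand gene and lie between 0.253 and 13.0 FPKM, while MRPS10 and MRPL14 stand highest at 98.5 and 97.2 FPKM.

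Promoters of mitochondrial ribosomal protein genes are known for sites of NRF1, of the ETS factor GABP and of YY1, so these motifs were counted in RefSeq promoter windows (GRCh38.p14, 250 bases before to 50 after a start). Of the 78 genes, 69 matched, with 85 windows. The ETS core CCGGAAG, on either strand, was in 38.8% of these windows, against 16.9% of the 14522 windows of tested coding genes and 10.3% of all 35093. The YY1 motif AAGATGGCG was in 15.3%, against 3.39% and 1.75%. The NRF1 motif, GCGCA, any base and GCGC, was in 11.8%, against 9.73% and 5.79%, and its strict form with T as that base, whose matches are among the former, in 1.18%, against 1.89% and 1.24%. The NFY motif CCAAT was in 32.9%, against 34.4% and 34.6%, and the antioxidant response element core TGACNNNGC in 10.6%, against 14.4% and 13.4%. These shares describe letters in a window and do not show binding.

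The 250 bases before the RefSeq start are shown for 4 genes that changed between BITC+ZA and BITC: MRPS10 (chr6:42217862-42218111, minus strand) and MRPL47 (chr3:179604639-179604888, minus strand; 1 of 2 listed starts) fell, and MRPS25 (chr3:15065316-15065565, minus strand) and MRPS34 (chr16:1773135-1773384, minus strand) rose. Sequences run 5′ to 3′, and capitals mark matches to the 6 motifs.
MRPS10: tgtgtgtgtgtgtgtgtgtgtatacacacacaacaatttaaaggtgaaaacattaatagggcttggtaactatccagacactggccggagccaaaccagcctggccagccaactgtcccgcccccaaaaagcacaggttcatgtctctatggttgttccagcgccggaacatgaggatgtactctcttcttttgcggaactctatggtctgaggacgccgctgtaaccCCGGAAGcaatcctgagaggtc
MRPL47: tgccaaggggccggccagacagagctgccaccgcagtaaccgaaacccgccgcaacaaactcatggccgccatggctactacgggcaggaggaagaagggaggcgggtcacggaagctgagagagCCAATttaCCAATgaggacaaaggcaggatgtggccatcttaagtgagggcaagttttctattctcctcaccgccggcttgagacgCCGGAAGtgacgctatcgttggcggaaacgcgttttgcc
MRPS25: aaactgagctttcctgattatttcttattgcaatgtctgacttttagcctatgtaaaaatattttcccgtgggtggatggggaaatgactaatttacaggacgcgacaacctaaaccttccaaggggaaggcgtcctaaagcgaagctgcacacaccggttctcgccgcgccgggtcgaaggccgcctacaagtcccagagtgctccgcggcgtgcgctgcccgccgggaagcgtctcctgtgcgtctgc
MRPS34: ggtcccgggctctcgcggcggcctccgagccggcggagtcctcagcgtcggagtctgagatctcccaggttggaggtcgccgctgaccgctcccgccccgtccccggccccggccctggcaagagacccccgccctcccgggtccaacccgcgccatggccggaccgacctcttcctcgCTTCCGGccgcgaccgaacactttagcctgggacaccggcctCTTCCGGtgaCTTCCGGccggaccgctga
The capitals are 1 ETS core in MRPS10, 1 ETS core and 2 CCAAT in MRPL47, and 3 ETS cores on the reverse strand (CTTCCGG) in MRPS34. MRPS25 held no match to these 6 motifs in this window. The ETS core stood in the windows of MRPS10 and MRPL47, which fell, and of MRPS34, which rose. The call of MRPS34 was not kept with GC and length offsets (log2 fold change 0.10, adjusted p = 0.298). A link between the core and the direction of change was not tested.

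Summed over the 78 genes, the level was 3827 ± 64.4 CPM in vehicle and 3924 ± 75 CPM in BITC (SD, n = 3). It was 4071 ± 99.8 CPM in ZA and 3824 ± 47.5 CPM in BITC+ZA. The mean share of raw counts, without normalization, was 0.383, 0.391, 0.404 and 0.385% in that order. The 3 ZA libraries lay at 4007, 4186 and 4020 CPM, above every other library. In share of raw counts, however, ZA library 1 (0.395%) lay below BITC library 3 (0.398%). The BITC libraries, at 3941, 3842 and 3989 CPM, overlapped the vehicle libraries at 3755, 3847 and 3879 CPM, and so did the BITC+ZA libraries at 3871, 3776 and 3824 CPM. Of the 78 genes, 36 had their highest group mean in ZA and 34 their lowest in BITC+ZA. The same count over all genes was not made, so it is not known whether these numbers are particular to the 78. Mitochondrially encoded RNA took 3.54 ± 0.0603% of counts in vehicle, 3.94 ± 0.138% in BITC, 4.25 ± 0.607% in ZA and 4.83 ± 0.0839% in BITC+ZA. ZA library 1, at 4.95%, stood above ZA libraries 2 and 3 at 3.88 and 3.92%. In bulk libraries, a change in RNA per cell and a change in the share of cells that carry a transcript cannot be told apart.

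**Figure D2:**
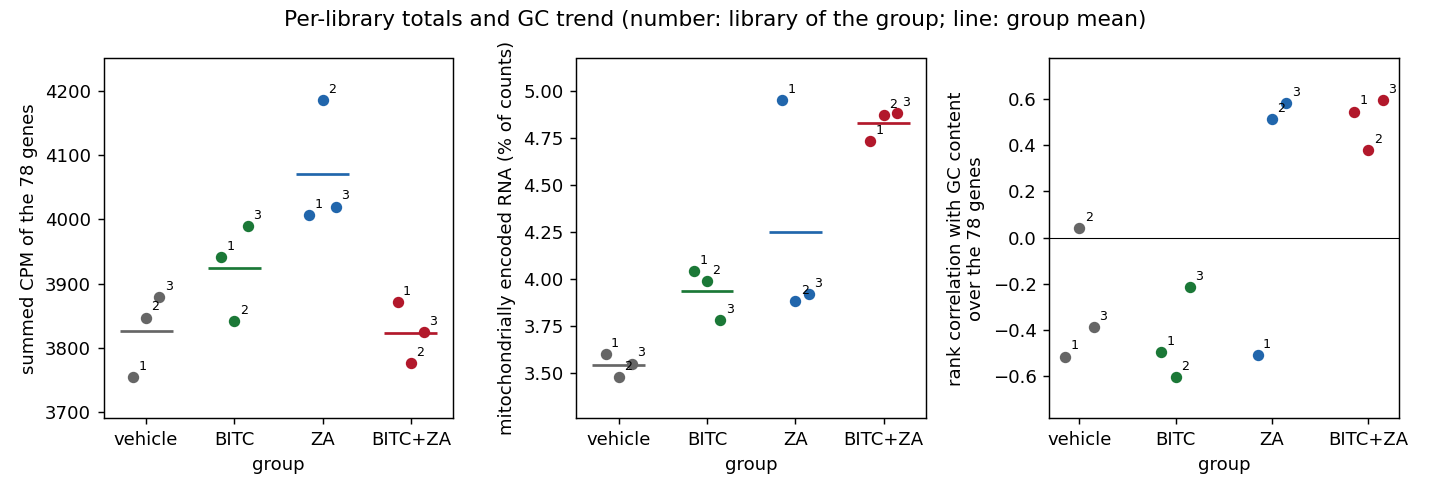
Summed CPM of the 78 genes (left), mitochondrially encoded RNA in percent of counts (middle) and rank correlation of each library's deviation with GC content over the 78 genes (right), with 1 point per library numbered within its group and a line at the group mean in the left and middle panels. The ZA libraries are highest in the left panel (4007 to 4186 CPM), and ZA library 1 falls at −0.508 in the right panel where the other ZA libraries are at 0.513 and 0.582.

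Changes were small throughout. The median log2 fold change of the 78 genes was 0.03 for BITC against vehicle, 0.095 for ZA against vehicle and 0.003 for BITC+ZA against vehicle, and over all genes tested 0.001, 0.016 and −0.001. It was 0.055 for ZA against BITC, −0.06 for BITC+ZA against BITC and −0.095 for BITC+ZA against ZA, and over all genes 0.001, 0.005 and −0.01. Comparisons with a group in common share its libraries. The sign of the median was the same under all alternatives except for BITC+ZA against vehicle, where it ran from −0.035 to 0.023. With GC and length offsets the median for ZA against vehicle was 0.038, against 0.001 over all genes, and for BITC+ZA against ZA −0.067, against −0.02. In total, 22 genes were called in at least 1 of the 7 tests, with 38 calls, and 56 were called in none. The share of all genes called in at least 1 test was not counted, so these totals cannot be set against it.

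**Figure D3:**
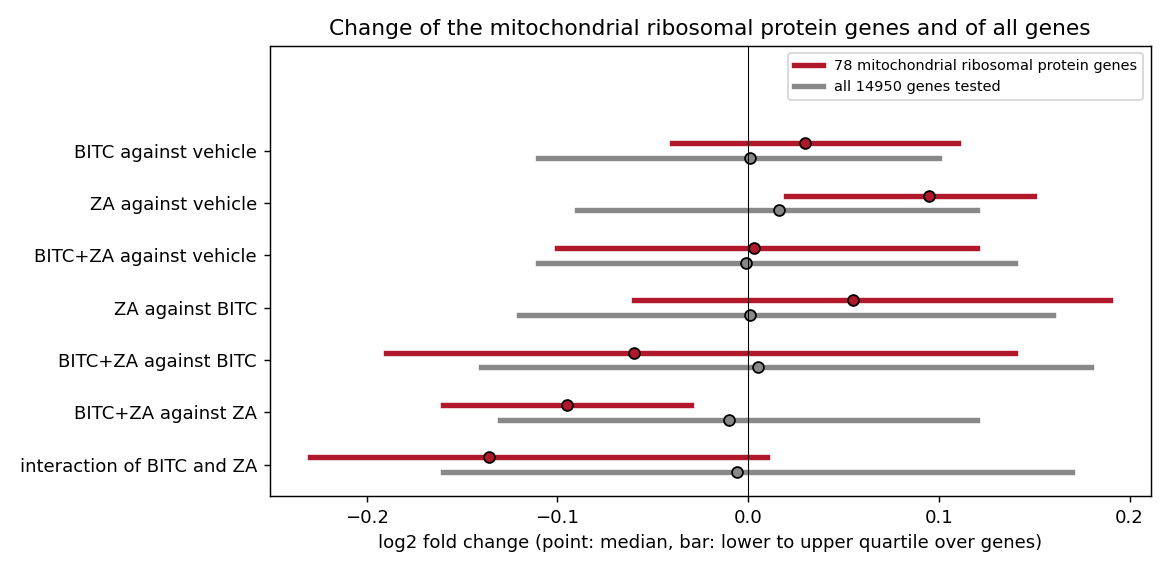
Median (point) and lower to upper quartile (bar) of the log2 fold change over the 78 mitochondrial ribosomal protein genes (red) and over all 14950 genes tested (grey), for the 6 comparisons and the interaction. The members' medians are highest for ZA against vehicle (0.095) and lowest for the interaction (−0.136), while those of all genes stay between −0.01 and 0.016.

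Set against vehicle, BITC on its own changed few of the 78 genes. MRPS28 fell and MRPS17 rose, both small-subunit homologues of bacterial proteins and both among the 8 genes that share coding bases. These 2 genes (1 higher, 1 lower) were the only ones of the 78 called, where 1.78% of all genes tested were called, 0.776% higher and 1.0% lower. MRPS28 (chromosome 8, 79918717 to 80030289, minus strand) stood at 6.14, 6.96 and 7.76 CPM in vehicle libraries 1 to 3, at 3.43, 4.12 and 4.49 in BITC, at 4.79, 7.99 and 7.15 in ZA and at 5.53, 5.45 and 6.54 in BITC+ZA. The BITC libraries were thus the lowest of all 12, with no overlap with vehicle (log2 fold change −0.79, SE 0.18, adjusted p = 0.0184). MRPS17 (chromosome 7, 55951819 to 55956501, plus strand) stood at 5.2, 4.77 and 4.85 CPM in vehicle, at 8.29, 6.76 and 8.41 in BITC, at 6.20, 5.53 and 4.53 in ZA and at 3.99, 5.08 and 6.05 in BITC+ZA. Here the BITC libraries were the highest of all 12 (0.66, SE 0.17, adjusted p = 0.0341).

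Both changes were called with GC and length offsets too. MRPS28 was not called when vehicle library 2 (adjusted p = 0.0824) or 3 (0.121) was left out, or BITC library 1 (0.152) or 2 (0.0694). That of MRPS17 was lost without vehicle library 1 (0.103), 2 (0.163) or 3 (0.135), BITC library 1 (0.175) or 3 (0.118), or BITC+ZA library 2 (0.0537). The number of genes called was 9 without ZA library 1, whose spread enters the shared model, 1 without vehicle library 1, BITC library 2 or 3 or BITC+ZA library 2, and 0 without vehicle library 2 or 3 or BITC library 1. The share of all genes called moved too, to 9.79% without ZA library 1 and to 0.667 to 1.29% in the other cases named. MRPL12, a stalk protein of the large subunit that is also known to bind the mitochondrial RNA polymerase, had the next largest decrease in value (−0.68, SE 0.41, adjusted p = 0.481) and was not called. The authors' deposited table lists it at −0.68 with an adjusted p of 0.00328. At an adjusted p below 0.05 that table lists 4 mitochondrial ribosomal protein genes, MRPL12, MRPL34, MRPL45 and MRPS10. Of these 4 edgeR called 0, and MRPS28 and MRPS17 are not among them. MRPS9 had the next largest increase (0.22, SE 0.07, adjusted p = 0.142). The BITC and vehicle libraries did not overlap for 14 genes that were higher and 5 that were lower in BITC, where 12.6% of all genes did not in each direction.

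The comparison of ZA with vehicle asked what the bisphosphonate alone changed. MRPS26 and MRPL41, both mitochondria-specific, rose, and edgeR called 0 of the 78 genes lower, where 1.06% of all genes tested were called, 0.355% higher and 0.709% lower. MRPS26, a small-subunit protein (chromosome 20, 3045945 to 3048254, plus strand), stood at 33.8, 33.7 and 29.2 CPM in vehicle and at 34.8, 50.8 and 45.8 in ZA. ZA library 1 was close to vehicle and the other 2 well above it (log2 fold change 0.44, SE 0.10, adjusted p = 0.0293). MRPL41, a large-subunit protein (chromosome 9, 137551199 to 137552555, plus strand) also described as a partner of BCL2, stood at 44.8, 52.0 and 50.7 CPM in vehicle and at 60.8, 63.0 and 56.4 in ZA. All 3 ZA libraries were above all vehicle libraries (0.29, SE 0.07, adjusted p = 0.0353). The ZA and vehicle libraries did not overlap for 10 genes that were higher and 2 that were lower in ZA, where 7.27% and 9.14% of all genes did not. The GC contents of MRPS26 and MRPL41, 63.4 and 71.9%, are high among the 78 genes, whose median was 47.66%.

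With GC and length offsets, MRPS26 was still called and MRPL41 was not (0.17, adjusted p = 0.223). MRPS26 lost its call without any 1 library except BITC library 2 or 3 or ZA library 1 (adjusted p 0.0555 to 0.212 in the other cases), and MRPL41 without any 1 except BITC library 3 or ZA library 1 or 3 (0.0507 to 0.27). Without ZA library 1 the model called 21 of the 78 genes, 1 was called without BITC library 2 or ZA library 3, 2 without BITC library 3, and 0 without each of the other 8. The share of all genes called was 16.3% without ZA library 1 and 0.00655 to 1.27% without any 1 of the others. MRPL12 had the largest value at 0.70 (SE 0.37, adjusted p = 0.434): its ZA libraries were at 8.24, 27.6 and 22.6 CPM, so that library 1 lay below the vehicle libraries at 13.0, 13.2 and 9.89 CPM and the other 2 above. MRPL23 followed at 0.49 (SE 0.29, adjusted p = 0.481). The lowest values were those of MRPL19 (−0.20, SE 0.08, adjusted p = 0.218) and MRPS30 (−0.13, SE 0.06, adjusted p = 0.353).

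The comparison of BITC+ZA with vehicle asked what both compounds changed together. The small-subunit genes MRPS25 and MRPS26 rose and MRPS30, a large-subunit protein, fell, all 3 mitochondria-specific, where 4.9% of all genes tested were called, 2.48% higher and 2.41% lower. MRPS25 (chromosome 3, 15042460 to 15065335, minus strand) stood at 33.0, 32.0 and 30.4 CPM in vehicle, at 28.2, 32.6 and 33.7 in BITC, at 28.4, 37.1 and 36.3 in ZA and at 41.3, 40.4 and 37.6 in BITC+ZA. The BITC+ZA libraries were the highest of all 12 (log2 fold change 0.32, SE 0.09, adjusted p = 0.034). MRPS26 was at 40.5, 39.6 and 42.4 CPM in BITC+ZA, above all vehicle libraries (0.34, SE 0.10, adjusted p = 0.0474). MRPS30 (chromosome 5, 44808925 to 44820428, plus strand) stood at 58.8, 60.4 and 64.5 CPM in vehicle and at 51.5, 55.2 and 50 in BITC+ZA, without overlap (−0.23, SE 0.06, adjusted p = 0.0357).

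MRPS25 and MRPS30 were also called with GC and length offsets, and MRPS26 was not (0.19, adjusted p = 0.0906). All 3 calls were lost without any 1 vehicle library (adjusted p 0.0618 to 0.224). MRPS25 and MRPS26 also lost theirs without any 1 BITC+ZA library (0.0705 to 0.2), MRPS26 without any 1 BITC library (0.0516 to 0.0768), and MRPS30 without BITC+ZA library 1 (0.111) or 3 (0.17) or BITC library 2 (0.0561). The number called was 10 without ZA library 1, 1 without BITC library 2 or BITC+ZA library 2, and 0 without any 1 vehicle library or BITC+ZA library 1 or 3. The share of all genes called was 14.6% without ZA library 1 and 1.89 to 3.78% in the other cases named. MRPL38 (0.60, SE 0.23, adjusted p = 0.13), MRPL53 (0.53, SE 0.23, adjusted p = 0.185), MRPL50 (−0.24, SE 0.09, adjusted p = 0.144) and MRPS28 (−0.25, SE 0.17, adjusted p = 0.435) had the other extreme values. Libraries did not overlap for 14 genes that were higher and 15 that were lower in BITC+ZA, where 15.6% and 17.2% of all genes did not. In the authors' deposited table, 7 mitochondrial ribosomal protein genes stand at an adjusted p below 0.05 here. Of these 7 edgeR called 3, MRPS25, MRPS26 and MRPS30, and did not call MRPL12, MRPL28, MRPL42 and MRPS34.

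With BITC in both groups, the comparison of BITC+ZA with BITC asked what ZA changed when BITC was present, and it gave 16 of the 38 calls, more than any other comparison. MRPL34, MRPS25, MRPS34, MRPL38, MRPL53 and MRPS28 rose, by 0.32 to 0.76 on the log2 scale. MRPS10, MRPL47, MRPL50, MRPS17, MRPS22, MRPL42, MRPS30, MRPL1, MRPL13 and MRPS14 fell, by 0.19 to 0.64. These 16 genes (6 higher, 10 lower) are 20.5% of the 78, where 14.7% of all genes tested were called, 6.6% higher and 8.15% lower. The groups did not overlap for 16 genes that were higher and 32 that were lower in BITC+ZA, where 18.4% and 19.6% of all genes did not.

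Among those that rose, MRPL34, a large-subunit homologue of a bacterial protein (chromosome 19, 17292609 to 17306843, plus strand), stood at 17.9, 18.0 and 21.6 CPM in BITC and at 30.8, 25.3 and 30 in BITC+ZA. Vehicle lay between at 22.3, 25.5 and 24.6 CPM and overlapped BITC+ZA only in its highest library (log2 fold change 0.58, SE 0.12, adjusted p = 0.00534). MRPS34 (chromosome 16, 1771890 to 1773155, minus strand) stood at 54.9, 56.2 and 59.6 CPM in BITC and at 74.6, 68.5 and 70.6 in BITC+ZA, without overlap (0.32, SE 0.09, adjusted p = 0.0185). MRPS25 was higher by 0.34 (SE 0.09, adjusted p = 0.0152), with BITC libraries at 28.2 to 33.7 CPM and BITC+ZA libraries at 37.6 to 41.3 CPM. The other 3, MRPL38, MRPL53 and MRPS28, belong to the genes with shared coding bases and had at most 6.54 CPM in either group. MRPL38 went from 2.21 ± 0.592 to 3.74 ± 0.102 CPM (0.76, SE 0.23, adjusted p = 0.0306), MRPL53 from 2.03 ± 0.305 to 3.36 ± 0.122 CPM (0.73, SE 0.24, adjusted p = 0.0393) and MRPS28 from 4.01 ± 0.538 to 5.84 ± 0.606 CPM (0.54, SE 0.19, adjusted p = 0.0497).

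Among those that fell, MRPS10 stood at 251, 230 and 228 CPM in BITC and at 203, 182 and 199 in BITC+ZA, without overlap, while vehicle was at 207, 202 and 215 CPM (log2 fold change −0.28, SE 0.06, adjusted p = 0.00669). MRPL47, whose bacterial counterpart lies at the exit of the peptide tunnel (chromosome 3, 179588285 to 179604654, minus strand), stood at 65.1, 62.9 and 61.1 CPM in BITC and at 53.3, 47.9 and 52.8 in BITC+ZA (−0.30, SE 0.07, adjusted p = 0.00757). MRPL50, a mitochondria-specific large-subunit protein (chromosome 9, 101387633 to 101398614, minus strand), stood at 38.2, 32.9 and 34.8 CPM in BITC and at 29.2, 27.6 and 24.3 in BITC+ZA (−0.38, SE 0.09, adjusted p = 0.00893). In these genes every BITC+ZA library was below every BITC library. MRPS17 went from 7.82 ± 0.921 to 5.04 ± 1.03 CPM (−0.64, SE 0.17, adjusted p = 0.0145), close to its vehicle level of 4.94 ± 0.229 CPM. MRPS22, a small-subunit protein mutated in inherited deficiencies of oxidative phosphorylation, went from 51.1 ± 0.632 to 42.9 ± 2.39 CPM (−0.25, SE 0.07, adjusted p = 0.0176). MRPL42 went from 105 ± 2.30 to 87.3 ± 7.77 CPM (−0.26, SE 0.07, adjusted p = 0.0209). The changes of MRPS30, MRPL1, MRPL13 and MRPS14 were −0.19 to −0.25 with adjusted p 0.026 to 0.0472.

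The largest value in this comparison was that of MRPL12, which stood at 8.04, 6.45 and 8.10 CPM in BITC and at 17.8, 14.3 and 19.6 in BITC+ZA. The groups did not overlap, but edgeR did not call it in the model of all 4 groups (1.19, SE 0.40, adjusted p = 0.0835). It was called without ZA library 1 (adjusted p = 1.53e-10), with only the libraries of these 2 groups (1.82e-12), and by DESeq2 (1.2, adjusted p = 0.0167). The authors' deposited table lists it at 1.19 with an adjusted p of 5.7e-11. That deposited table lists 23 of the 78 genes at an adjusted p below 0.05, of which edgeR called 13. The other 10 were 6 higher ones, MRPL12, MRPL28, MRPL23, MRPL24, MRPL4 and MRPS26, and 4 lower ones, MRPL3, MRPL9, MRPL10 and MRPL45. Of these, MRPL28 is at 0.48 (adjusted p = 8.9e-06), MRPL23 at 0.57 (0.00181), MRPL24 at 0.3 (0.00504) and MRPL4 at 0.27 (0.00576) in the authors' deposited table. With only the libraries of these 2 groups, edgeR called all 10, among them MRPL28 (1.18e-07), MRPL24 (0.000218), MRPL4 (0.000412) and MRPL23 (0.0306). Without ZA library 1 it called all of them but MRPL23, among them MRPL28 (6.48e-06), MRPL24 (0.000225) and MRPL4 (0.000349). In these 2 settings 27.7% and 26.9% of all genes were called. Besides MRPL12, DESeq2 called MRPL28 (0.0281) and MRPL4 (0.0303) of the 10.

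**Figure D4:**
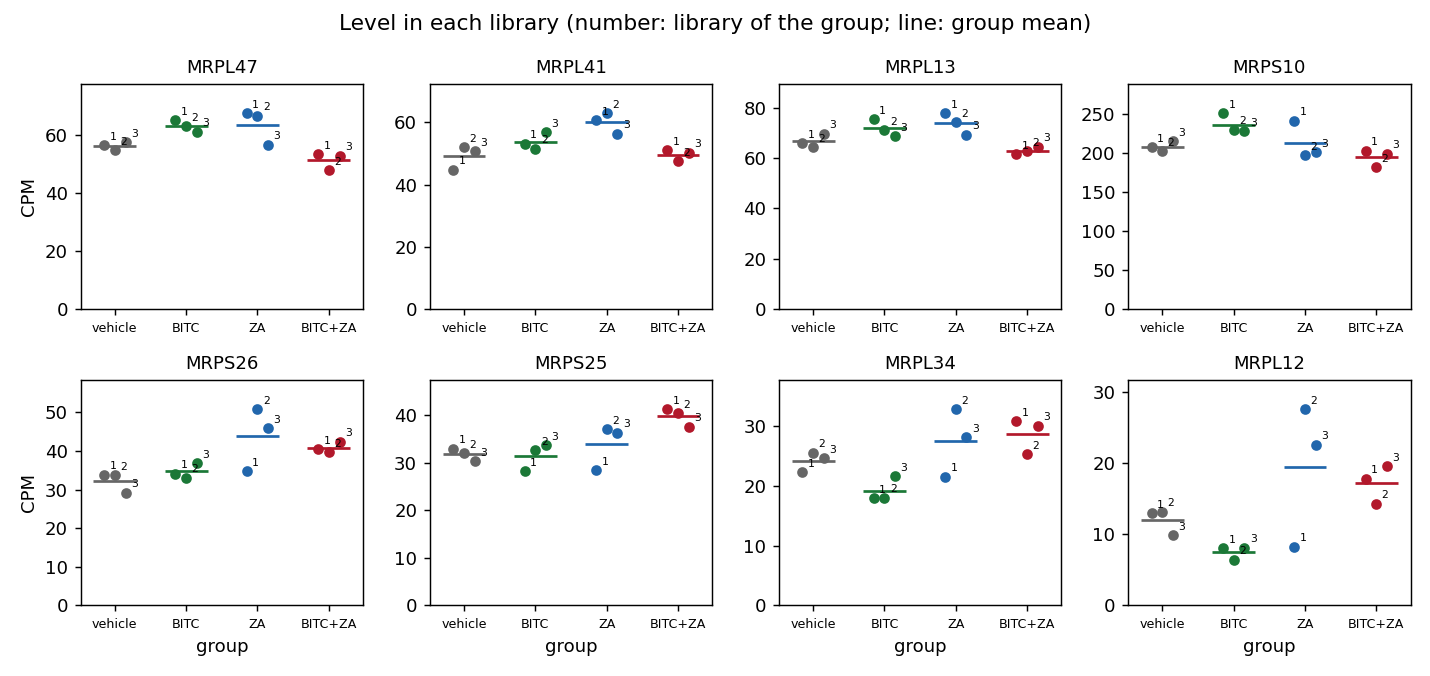
CPM of 8 genes in each of the 12 libraries (points, numbered within the group) with the group mean (line), on axes that start at 0. The means of MRPL47, MRPL41 and MRPL13 are lower in BITC+ZA than in BITC and in ZA, MRPS25 is highest in BITC+ZA (37.6 to 41.3 CPM), and ZA library 1 of MRPL12 (8.24 CPM) lies far below ZA libraries 2 and 3 (27.6 and 22.6 CPM).

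The direction of these changes went with GC content. Across the 78 genes, the rank correlation of the log2 fold change of BITC+ZA against BITC with GC content was 0.586, and across all genes it was 0.481. The genes that fell had a median GC content of 38.8% (33.5 to 47.3%) and those that rose of 53.8% (43.1 to 64.6%). Of the 26 genes with the lowest GC content, 1 was called higher and 9 lower, with a median change of −0.19, and of the 26 with the highest, 4 were called higher and 0 lower, with a median of 0.14. With GC and length offsets, 18 genes were called, where 11.5% of all genes tested were called. Among the 18 were 8 of the 16: MRPL34, MRPS25, MRPS28, MRPS10, MRPL47, MRPL50, MRPS17 and MRPL42. The other 8 calls were lost. Among these, MRPL53 was at 0.66 (adjusted p = 0.0682) and MRPL38 at 0.53 (adjusted p = 0.156) with offsets, against 0.73 and 0.76 without, while MRPS34 was at 0.10 (adjusted p = 0.298), against 0.32. MRPS22 was at −0.15 (adjusted p = 0.103), MRPL1 at −0.12 (0.228), MRPS14 at −0.12 (0.322), MRPS30 at −0.11 (0.24) and MRPL13 at −0.08 (0.351).

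**Figure D5:**
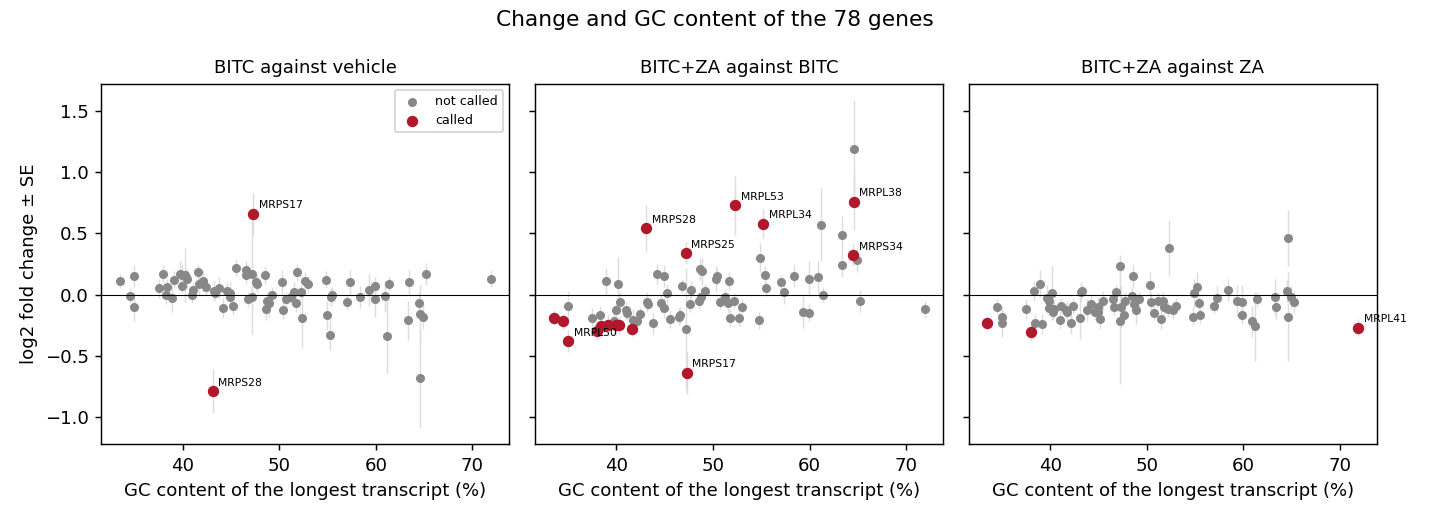
Log2 fold change (± SE) of the 78 genes against the GC content of their longest transcript for BITC against vehicle (left), BITC+ZA against BITC (middle) and BITC+ZA against ZA (right), with called genes in red. In the middle panel the called genes that fell lie at 33.5 to 47.3% GC and those that rose at 43.1 to 64.6%; rank correlations over the 78 genes are −0.312, 0.586 and 0.216 from left to right.

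Without any 1 library, only the call of MRPL34 was kept in every case. BITC library 1 mattered most: without it 1 of the 78 genes was called, and all other calls were lost (adjusted p 0.0525 for MRPL47, 0.0566 for MRPS10, up to 0.209 for MRPS28). The number called was 7 without BITC library 2, 6, 8 and 5 without BITC+ZA library 1, 2 or 3, and 38 without ZA library 1. Of all genes tested, 3.43% were called without BITC library 1, 5.18% without BITC library 2 and 26.9% without ZA library 1. Without BITC+ZA library 1, 2 or 3 it was 7.12, 7.29 and 3.95%. MRPS10 and MRPL47 kept their call without any 1 of the other libraries. MRPS17 lost it also without BITC+ZA library 1 (0.0805) and MRPL50 also without BITC+ZA library 3 (0.0734). MRPS25 lost it also without BITC+ZA library 1 (0.0691) or 2 (0.057), and MRPL42 without BITC library 2 (0.0646) or BITC+ZA library 3 (0.139). MRPS34 lost it without BITC library 2 (0.0604) or BITC+ZA library 1 (0.0855) or 3 (0.0747), and MRPS22 without BITC library 2 (0.0737) or BITC+ZA library 2 (0.0889) or 3 (0.0639). MRPL38 lost it without BITC library 3 or any 1 BITC+ZA library (0.0675 to 0.0984), and MRPL1 and MRPL13 without BITC library 2 or any 1 BITC+ZA library (0.0608 to 0.11). MRPS30 lost it without BITC library 2 or 3 or BITC+ZA library 1 or 3 (0.0605 to 0.127), and MRPL53 without any 1 BITC or BITC+ZA library (0.0717 to 0.14). MRPS28 and MRPS14 lost it without any 1 library other than a ZA library (0.0508 to 0.209 and 0.0534 to 0.176).

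The comparison of the compounds with each other, ZA against BITC, gave 8 genes higher and 1 lower in ZA, where 10.5% of all genes tested were called, 6.11% higher and 4.44% lower. MRPL34 was higher by 0.52 (SE 0.12, adjusted p = 0.00945), with ZA libraries at 21.5, 32.8 and 28.1 CPM of which the first lay within the BITC range. MRPS28 was higher by 0.73 (SE 0.18, adjusted p = 0.012) and MRPL2, a core protein of the large subunit near its catalytic centre, by 0.23 (SE 0.07, adjusted p = 0.0222). MRPL14 was higher by 0.22 (SE 0.06, adjusted p = 0.0245), MRPS26 by 0.34 (SE 0.10, adjusted p = 0.0292) and MRPL52 by 0.28 (SE 0.09, adjusted p = 0.0322). MRPS34 and MRPL27 followed at 0.29 and 0.25 with adjusted p 0.0354 and 0.0476. MRPS17 was lower (−0.53, SE 0.17, adjusted p = 0.0388). MRPL12 had the largest value of all at 1.38 (SE 0.40, adjusted p = 0.0637), followed by MRPL23 at 0.83 (SE 0.30, adjusted p = 0.114), and MRPL50 was at −0.21 (SE 0.09, adjusted p = 0.144), and none of these 3 was called. Libraries did not overlap for 9 genes that were higher and 4 that were lower in ZA, where 10.4% and 10.7% of all genes did not. For this comparison the authors' deposited table lists 3 mitochondrial ribosomal protein genes at an adjusted p below 0.05. Of these 3 edgeR called 1, MRPL34, and did not call MRPL23 and MRPL28.

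These calls rest on ZA libraries 2 and 3 and on BITC libraries 1 and 2: none of the 9 was kept in every case, and without BITC library 1 or 2 or ZA library 2 the number called was 0, without ZA library 3 it was 1, and without ZA library 1 it was 29. It was 6 without vehicle library 3 or BITC+ZA library 2 or 3. Of all genes tested, 29.6% were called without ZA library 1 and 2.49 to 4.4% without BITC library 1 or 2 or ZA library 2 or 3. Without vehicle library 3 or BITC+ZA library 2 or 3 it was 8.52 to 8.65%. Without ZA library 2 the adjusted p-values of the 9 genes were 0.0769 to 0.408. MRPL34 lost its call also without BITC library 1 (0.0665) or 2 (0.0603). MRPS28, MRPL2, MRPL14, MRPS26 and MRPL52 lost theirs also without BITC library 1 or 2 or ZA library 3 (0.0575 to 0.171), and MRPL52 without BITC+ZA library 3 (0.0501). MRPS34, MRPL27 and MRPS17 lost theirs also without libraries of the other groups (0.0508 to 0.067). With GC and length offsets 4 of the 9 calls were kept, those of MRPL34, MRPS28, MRPL27 and MRPS17. Of the other 5, MRPL52 was at 0.32 (adjusted p = 0.066) with offsets, against 0.28 without, while MRPL2 was at 0.12 (0.163), MRPL14 at 0.11 (0.144), MRPS26 at 0.10 (0.4) and MRPS34 at 0.05 (0.684).

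The comparison of BITC+ZA with ZA asked what BITC changed when ZA was present. MRPL47, MRPL41 and MRPL13, all large-subunit genes, fell, and edgeR called 0 of the 78 higher, where 6.95% of all genes tested were called, 3.31% higher and 3.64% lower. MRPL47 stood at 67.5, 66.6 and 56.6 CPM in ZA and at 53.3, 47.9 and 52.8 in BITC+ZA (log2 fold change −0.31, SE 0.07, adjusted p = 0.00741). MRPL41 stood at 51.1, 47.6 and 50.3 CPM in BITC+ZA, below its ZA libraries at 56.4 to 63.0 CPM (−0.27, SE 0.07, adjusted p = 0.0166). MRPL13, a large-subunit homologue of a bacterial protein (chromosome 8, 120380761 to 120445402, minus strand), stood at 77.8, 74.2 and 69.3 CPM in ZA and at 61.4, 62.7 and 64.4 in BITC+ZA (−0.23, SE 0.06, adjusted p = 0.0219). In all 3 genes, every BITC+ZA library was below every ZA library. The groups did not overlap for 16 genes that were lower and 3 that were higher, where 12.3% and 11.4% of all genes did not. MRPL38 (0.46, SE 0.23, adjusted p = 0.228) and MRPL53 (0.38, SE 0.23, adjusted p = 0.35) had the largest increases and were not called. The authors' deposited table lists 2 of the 78 genes at an adjusted p below 0.05 here, MRPL41 and MRPL47, and edgeR called both.

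All 3 were called with GC and length offsets as well, and all 3 lost their call without BITC+ZA library 2 (adjusted p = 0.0679 for MRPL47, 0.0976 for MRPL41 and 0.0802 for MRPL13). MRPL41 lost it also without ZA library 2 (0.0589) or BITC+ZA library 3 (0.062), and MRPL13 without BITC+ZA library 1 (0.0785) or 3 (0.0598). The number called was 9 without ZA library 1, 5 without ZA library 2, 2 and 1 without BITC+ZA library 1 or 3, and 0 without BITC+ZA library 2. In the same order, 12.7, 5.55, 3.93, 2.41 and 2.56% of all genes tested were called. With ZA library 1 left out and offsets added, MRPL41 was at −0.10 (adjusted p = 0.338).

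The interaction, the log2 change of BITC+ZA less those of BITC and of ZA alone, each from vehicle, asked whether the effects added up. It was called negative for the same 3 genes, and edgeR called 0 of the 78 positive, where 2.84% of all genes tested were called, 1.31% higher and 1.53% lower. In either direction, 24 of the 78 had an unadjusted p below 0.05, and the share of all genes at that threshold was not counted. MRPL47 was at 56.2 ± 1.36 CPM in vehicle, 63.0 ± 1.97 in BITC, 63.6 ± 6.08 in ZA and 51.3 ± 2.99 in BITC+ZA (interaction −0.47, SE 0.10, adjusted p = 0.01). MRPL41 was at 49.2 ± 3.86, 53.9 ± 2.70, 60.1 ± 3.33 and 49.7 ± 1.86 CPM in that order (−0.41, SE 0.10, adjusted p = 0.0245). MRPL13 was at 66.6 ± 2.81, 71.7 ± 3.40, 73.8 ± 4.28 and 62.8 ± 1.53 CPM (−0.34, SE 0.09, adjusted p = 0.0323). In each gene the means of both single treatments lay above vehicle, and that of BITC+ZA lay below both. The median interaction of the 78 genes was −0.136, against −0.006 over all genes, and −0.075 against −0.023 with GC and length offsets. MRPS17 had the lowest value (−0.77, SE 0.24, adjusted p = 0.0788), and MRPL38 (0.62, SE 0.33, adjusted p = 0.323) and MRPS28 (0.60, SE 0.25, adjusted p = 0.191) the highest, and these were not called.

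MRPL47 was called without any 1 library and with GC and length offsets, and was missed only on log2 FPKM in limma (adjusted p = 0.0584 and 0.0589). MRPL41 was also called with offsets, but lost its call without vehicle library 1 (0.0976), BITC library 1 (0.0672) or 3 (0.0641), or BITC+ZA library 2 (0.0832) or 3 (0.067). MRPL13 lost it with offsets (−0.18, adjusted p = 0.176), and without vehicle library 1 (0.0918) or 2 (0.103), BITC library 1 (0.118) or 2 (0.0628), or any 1 BITC+ZA library (0.0721 to 0.0819). The number called was 7, 6 and 8 without ZA library 1, 2 or 3, 1 without vehicle library 1, BITC library 1 or BITC+ZA library 2 or 3, and 2 in 4 other cases, vehicle library 2, BITC library 2 or 3 and BITC+ZA library 1. The share of all genes called was 5.59, 4.42 and 6.03% without ZA library 1, 2 or 3, and 0.627 to 1.85% in the other cases named.

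Other parts of the machinery were measured from lists of named genes. Over all genes tested, 6.6% were called higher and 8.15% lower in BITC+ZA against BITC, 6.11% and 4.44% in ZA against BITC, 3.31% and 3.64% in BITC+ZA against ZA, and 1.31% and 1.53% in the interaction. Of the 5 subunits with other names, DAP3 (−0.15, SE 0.05, adjusted p = 0.0417) and PTCD3 (−0.19, SE 0.05, adjusted p = 0.0197), both small-subunit proteins, fell from BITC to BITC+ZA, and AURKAIP1, CHCHD1 and GADD45GIP1 were called in no comparison. Of 25 assembly factors, MTERF4, which recruits a methyltransferase to the ribosomal RNA, rose (0.40, adjusted p = 0.018) and MTERF3 fell (−0.32, adjusted p = 0.0422) in that comparison, and NGRN was lower in ZA than in BITC (−0.28, adjusted p = 0.0306). Of 15 translation factors matched of 16, LRPPRC and its partner SLIRP, which stabilise mitochondrial messenger RNAs, fell from BITC to BITC+ZA (−0.25, adjusted p = 0.00374, and −0.31, adjusted p = 0.0104). LRPPRC was also lower in ZA than in BITC (−0.17, adjusted p = 0.0313), and the interaction of SLIRP was −0.40 (adjusted p = 0.0445). Of 20 genes of aminoacyl-tRNA synthesis in mitochondria, AARS2 rose (0.46, adjusted p = 0.007) and IARS2 (−0.24, adjusted p = 0.00515), WARS2 (−0.29, adjusted p = 0.0169) and GATC (−0.28, adjusted p = 0.0145) fell from BITC to BITC+ZA. IARS2 was also lower in BITC+ZA than in ZA (−0.20, adjusted p = 0.0165) and had a negative interaction (−0.27, adjusted p = 0.0382). None of the 6 genes of mitochondrial transcription was called in any comparison.

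Of 9 regulators of nuclear genes for mitochondria, ESRRA, an orphan nuclear receptor, was higher in ZA (0.29, adjusted p = 0.0383) and in BITC+ZA (0.32, adjusted p = 0.0196) than in BITC. GABPB1, the partner of the ETS factor GABPA, fell from 43.2 ± 2.35 CPM in BITC to 35.4 ± 0.168 CPM in BITC+ZA (−0.29, adjusted p = 0.0197). PPRC1, a coactivator, was higher in BITC+ZA than in ZA (0.23, adjusted p = 0.0154). GABPA was at −0.20 (adjusted p = 0.0792) from BITC to BITC+ZA, and NRF1, GABPA, YY1, MYC, PPARGC1A and PPARGC1B were called in no comparison. PPARGC1A, the coactivator known best for mitochondrial biogenesis, had 17 to 39 counts in a library.

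Many of the RNAs made inside mitochondria rose with both compounds. Of the 13 mitochondrially encoded messenger RNAs, 8 were called higher and 0 lower in BITC+ZA against vehicle, with a median of 0.49, and 2 higher in ZA against vehicle, with a median of 0.27. In BITC against vehicle 0 were called, with a median of 0.19, while 4 were higher in BITC+ZA than in BITC and 1 than in ZA. Over all genes tested, the share called higher was 2.48% in BITC+ZA, 0.355% in ZA and 0.776% in BITC, each against vehicle, 6.6% in BITC+ZA against BITC and 3.31% in BITC+ZA against ZA. MT-CO3, a subunit of cytochrome c oxidase, stood at 3990 ± 67.4 CPM in vehicle and 5090 ± 92.1 CPM in BITC+ZA (0.35, SE 0.04, adjusted p = 1.47e-05), and MT-ATP6, of the ATP synthase, at 2830 ± 74.2 and 4070 ± 112 CPM (0.52, SE 0.07, adjusted p = 0.000455). MT-RNR2, the large ribosomal RNA of the mitochondrial ribosome, went from 2190 ± 29.3 CPM up to 2820 ± 46.9 CPM (0.37, SE 0.06; adjusted p = 0.000801), and it was also higher in ZA than in vehicle (0.34, adjusted p = 0.0077). MT-RNR1, the small one, went from 486 ± 30.8 to 583 ± 37.6 CPM (0.26, adjusted p = 0.0524) and was not called. Over the same comparison, the median change of the 78 nuclear MRPL and MRPS genes was 0.003. The test of a difference between these lists was not made.

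Of the 39 calls on these lists, 11 were kept without any 1 library, namely LRPPRC and IARS2 in BITC+ZA against BITC, MT-ND1, MT-ND4, MT-CO1, MT-CO3, MT-ATP6 and MT-RNR2 in BITC+ZA against vehicle, and MT-CO3, MT-ATP6 and MT-RNR2 in BITC+ZA against BITC. With GC and length offsets 30 were kept. Those of MTERF3 (adjusted p = 0.164), NGRN (0.0702), SLIRP (0.0668 and, for the interaction, 0.146), GABPB1 (0.0956), WARS2 (0.0526), ESRRA (0.627 and 0.283) and LRPPRC in ZA against BITC (0.244) were lost. Leaving out 1 library ended each of the other 28 calls in at least 1 case. From BITC to BITC+ZA, the call of AARS2 was lost without BITC library 1 (0.0738), that of SLIRP without BITC+ZA library 3 (0.0543), and that of GATC without BITC library 1 (0.073) or BITC+ZA library 3 (0.0793). WARS2 lost it without BITC library 1 or BITC+ZA library 2 or 3 (0.0727 to 0.0936), MTERF4 without BITC library 1 or 3 or BITC+ZA library 2 or 3 (0.0574 to 0.084), and PTCD3 without BITC library 1 or 2 or BITC+ZA library 1 or 2 (0.0683 to 0.0969). ESRRA lost it without BITC library 1 or 2 or BITC+ZA library 1 or 3 (0.0629 to 0.138), and GABPB1 without BITC library 1 or 2 or any 1 BITC+ZA library (0.054 to 0.113). DAP3 lost it without any 1 library other than a ZA library (0.051 to 0.143), and MTERF3 without any 1 BITC or BITC+ZA library, vehicle library 3 or ZA library 3 (0.0545 to 0.137). Against ZA, IARS2 lost its call without BITC+ZA library 3 (0.119) and PPRC1 without any 1 BITC+ZA library (0.0533 to 0.082). In ZA against BITC, NGRN lost it without BITC library 2 or 3 or ZA library 2 or 3 (0.0671 to 0.182), and LRPPRC without BITC library 1 or 2 or ZA library 2 or 3 (0.106 to 0.179). MT-RNR2 lost its call in ZA against vehicle without vehicle library 1 (0.0625). In that comparison MT-CO3 lost its call in 8 of the fits without 1 library (up to 0.143) and MT-ATP6 in 5 (up to 0.106). In BITC+ZA against vehicle, MT-ND2 lost it in 9 (up to 0.136), MT-ND5 in 7 (up to 0.0992) and MT-CYB in 4 (up to 0.0638). From BITC to BITC+ZA, MT-ND4 lost it in 2 (up to 0.078) and MT-CO1 in 4 (up to 0.0903).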

How the data were processed

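RNA was measured in 12 libraries of MDA-MB-231 cells. HISAT2, DESeq2 1.20.0 and GRCh38 are named in the submitters' processing notes, and the sources used here name no read counter, annotation release or strand setting. The deposited raw counts per gene were joined over the 6 comparison tables of the authors, in which 4593 missing values, all at FPKM 0, were entered as 0. The authors' deposited FPKM values are scaled to library size and exon length and served for levels. The deposited normalised signal columns were not tested. The log2 fold changes and adjusted p-values of the authors' deposited tables are printed only where so named.

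Counts were tested with edgeR 4.0.16 (R 4.3.3): TMM normalization, the filterByExpr filter, a robust quasi-likelihood fit of all 4 groups without a block, and two-sided tests with Benjamini-Hochberg adjustment. Alternatives used limma 3.58.1, DESeq2 1.42.0, and GC and length offsets (splines with 5 df). The script was tested on simulated data. Genes were named by rule: the 3 highest and 3 lowest in vehicle, up to 6 called genes per direction and comparison, and the 2 with the largest fold change in each direction. The members and lists were chosen with earlier results of these data known.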

Additional observations from a re-analysis of the deposited data

Results flagged for a closer look

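The interaction of BITC and ZA, a test of whether the effect of one compound differed with the other present, was called by edgeR for 3 mitochondrial ribosomal protein genes. It was −0.47 for MRPL47 (adjusted p = 0.01), −0.41 for MRPL41 (adjusted p = 0.0245) and −0.34 for MRPL13 (adjusted p = 0.0323). In each, the mean of BITC+ZA was below the means of both single treatments. MRPL47 kept its call without any 1 library and with GC and length offsets. MRPL41 kept it with offsets but lost it in 5 of the fits without 1 library. MRPL13 lost it in 7 of these fits and with offsets (−0.18, adjusted p = 0.176).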

How the results depend on the processing

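The number of the 78 genes called moved with the processing, in the order BITC, ZA and BITC+ZA against vehicle, ZA against BITC, BITC+ZA against BITC, BITC+ZA against ZA, and interaction. Brackets give the share of all genes called in the same setting and order. Without the filter the number called was 4, 6, 5 and 16 in the first 4 (1.8, 1.44, 3.33 and 6.77%), and 5 and 6 in the last 2 (4.41 and 2.58%). With a stricter filter it was 14 for ZA against BITC (16.5%). With GC and length offsets it was 6 for BITC against vehicle (4.24%), 1 for ZA against vehicle (2.27%), 5 for BITC+ZA against ZA (11.6%) and 5 for the interaction (4.56%). With the offsets and the replicate block it was 5 for BITC against vehicle (3.92%). Without ZA library 1 and with offsets it was 8, 9, 6, 24, 26, 8 and 6 (8.1, 6.08, 13.2, 16.7, 15.9, 12 and 4.55%). With only the 2 groups compared it was 10, 0, 15, 0, 39 and 0 (9.77, 0.00699, 19.4, 1.27, 27.7 and 1.59%). DESeq2 called 4 for ZA against vehicle (2.84%), 17 for ZA against BITC (12.2%), and 5 each for BITC+ZA against ZA (7.67%) and the interaction (4.62%). On log2(FPKM + 1) and on log2(FPKM + 0.1), limma called 0, 0, 1 and 2 in the first 4 and 0 for the interaction. The shares of all genes were 0.843, 0.00669, 4.21, 5.13 and 0.0936% with a pseudocount of 1. With 0.1 they were 0.849, 0.00669, 4.03, 5.16 and 0.0936%. At an unadjusted p below 0.05, edgeR had 11, 15, 13, 26, 41, 16 and 24, and the share of all genes at that threshold was not counted. Leaving out 1 library gave 0 to 9, 0 to 21, 0 to 10, 0 to 29, 1 to 38, 0 to 9 and 1 to 8. The shares of all genes ran from 0.667 to 9.79%, 0.00655 to 16.3%, 1.89 to 14.6%, 2.49 to 29.6%, 3.43 to 26.9%, 2.41 to 12.7% and 0.627 to 6.03%.

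The median log2 fold change with offsets was 0.038 for ZA against vehicle, −0.035 for BITC+ZA against vehicle, −0.067 for BITC+ZA against ZA and −0.075 for the interaction. With offsets and the replicate block these were 0.037, −0.035, −0.067 and −0.075. Without ZA library 1 and with offsets it was 0.046, −0.034 and −0.078 for ZA and BITC+ZA against vehicle and the interaction. In limma it was 0.064 and −0.022 for ZA and BITC+ZA against vehicle with a pseudocount of 1, and 0.068 and −0.032 with 0.1. Leaving out 1 library gave medians of 0.014 to 0.048, 0.073 to 0.118, −0.016 to 0.01, 0.037 to 0.075, −0.071 to −0.044, −0.114 to −0.06 and −0.151 to −0.116. MRPL41 in ZA against BITC, at 0.16 (not called), was at −0.25 (adjusted p = 0.00166) without ZA library 1 and with offsets. The causes were not tested beyond the construction of these alternatives.

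Same-numbered libraries of different groups had correlations of −0.0668 to 0.0653 in their deviations from group means. These weak values do not show that the numbers pair the libraries, but with 3 libraries per group they cannot exclude it. With the replicate block the counts were 2, 3, 2, 10, 19, 5 and 4, where 2.11, 1.46, 5.63, 11.9, 16.9, 7.77 and 3.77% of all genes were called. It ended 2 of the 38 calls, that of MRPS26 in BITC+ZA against vehicle (0.34, adjusted p = 0.051) and that of MRPL27 in ZA against BITC (0.24, adjusted p = 0.05). Of 12 libraries, 6 correlated best with their own number.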
